A study of Homo sapiens with 2 samples.

Results

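The 9 mature microRNAs (miRNAs) described here are miR-143-3p, miR-145-5p, miR-1, miR-133a, miR-133b, miR-206, miR-199a-5p, miR-199a-3p and miR-214, which are known from smooth muscle, striated muscle and stromal cells. They were chosen by accession from the 1001 probes of the array table, as miRNAs tied to the kinase ROCK, actin and serum response factor (SRF), with earlier results of these data known. An accession equal to the table's own identifier was found for 8 of them. The accession of miR-199a-3p stood in a joint entry that holds 2 accessions. The samples were Huh7 cells, an established human hepatocellular carcinoma line, exposed to 10 µM Y27632 for 12 hours, and Huh7 cells labelled as control. Y27632 is a ROCK inhibitor, per the title of the series. Both were kept in Dulbecco's modified Eagle medium with fetal bovine serum, and the control's title names neither a vehicle nor a time of harvest. The treatment protocol text is attached to both samples, so the control was identified by its title alone. Each condition was 1 single-colour array of Hy5-labelled total RNA, so no value has a replicate error, no test was made, and each difference describes these 2 arrays.

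ROCK promotes actin filament assembly and contraction. When actin filaments form, less free actin is left to hold the MRTF coactivators, which then enter the nucleus and act with SRF on genes that carry CArG boxes. In mouse muscle, SRF and its partner myocardin are known to drive the cluster of miR-143 and miR-145 and the miR-1/133a clusters. MiR-206 and miR-133b are known as products of skeletal muscle. MiR-199a and miR-214 are known from mesenchymal cells, where they come from a long antisense transcript of the dynamin 3 gene. Huh7 is of hepatic epithelial origin, so the miRNAs were measured here outside muscle and stroma.

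A mature miRNA recognises targets mainly through its seed, bases 2 to 8 from the 5′ end, which is printed in capitals below so that members sharing a seed can be seen. The sequences are those of RefSeq (GRCh38.p14), in which all 9 members were matched by name. They hold 7 different seeds.
miR-143-3p: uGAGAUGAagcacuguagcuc
miR-145-5p: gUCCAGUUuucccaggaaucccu
miR-1: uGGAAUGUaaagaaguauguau
miR-206: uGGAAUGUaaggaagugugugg
miR-133a: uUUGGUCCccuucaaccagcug
miR-133b: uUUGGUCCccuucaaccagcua
miR-199a-5p: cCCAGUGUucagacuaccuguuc
miR-199a-3p: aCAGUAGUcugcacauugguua
miR-214: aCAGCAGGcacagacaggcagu

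MiR-133a and miR-133b shared a seed and 21 of 22 bases, and differed by G22A (positions counted from 1 at the 5′ end of miR-133a). MiR-1 and miR-206 shared the other common seed and 18 of 22 bases, and differed by A11G, A17G, A21G and U22G (positions counted from 1 at the 5′ end of miR-1). The sequence of miR-199a-3p was identical to that of miR-199b-3p over all 22 bases, so the source gene of a signal for that sequence cannot be told. Probe sequences were not used here, and whether the probes for miR-133a and miR-133b tell the RNAs apart was not tested. Their values below are therefore uncertain as values of separate miRNAs.

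Each member has at least 1 hairpin that lies near the hairpin of another member. The mature miR-143-3p lies at chr5:149428978-149428998 and miR-145-5p at chr5:149430661-149430683, both on the plus strand and inside the long non-coding RNA gene CARMN. Their hairpins, MIR143 and MIR145, are 1622 bases apart. The mature strands are in capitals in the hairpins below, since the results turn most on these 2 members. MiR-143-3p occupies bases 61 to 81 of its hairpin, the 3′ arm, and miR-145-5p bases 16 to 38, the 5′ arm.
MIR143 (chr5:149428918-149429023): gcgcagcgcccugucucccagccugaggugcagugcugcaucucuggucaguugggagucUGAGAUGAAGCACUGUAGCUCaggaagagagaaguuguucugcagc
MIR145 (chr5:149430646-149430733): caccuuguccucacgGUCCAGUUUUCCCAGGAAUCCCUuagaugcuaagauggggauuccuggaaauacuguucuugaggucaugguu

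MiR-1 and miR-133a each have 2 loci. On chromosome 18 the hairpins MIR1-2 and MIR133A1 are 3218 bases apart, on the minus strand, within MIR133A1HG and within the span of the protein-coding gene MIB1. On chromosome 20 MIR1-1 and MIR133A2 are 10535 bases apart, on the plus strand, within MIR1-1HG. MIR206 and MIR133B are 4488 bases apart on the plus strand of chromosome 6, and MIR133B lies within the long non-coding gene LINCMD1. MIR199A2 and MIR214 are 5627 bases apart on the minus strand of chromosome 1, within DNM3OS and the span of DNM3. A further hairpin that gives both strands of miR-199a, MIR199A1, lies on chromosome 19 within the span of DNM2. With 2 loci for the same mature sequence, the arrays cannot say which one a signal came from.

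**Figure D1:**
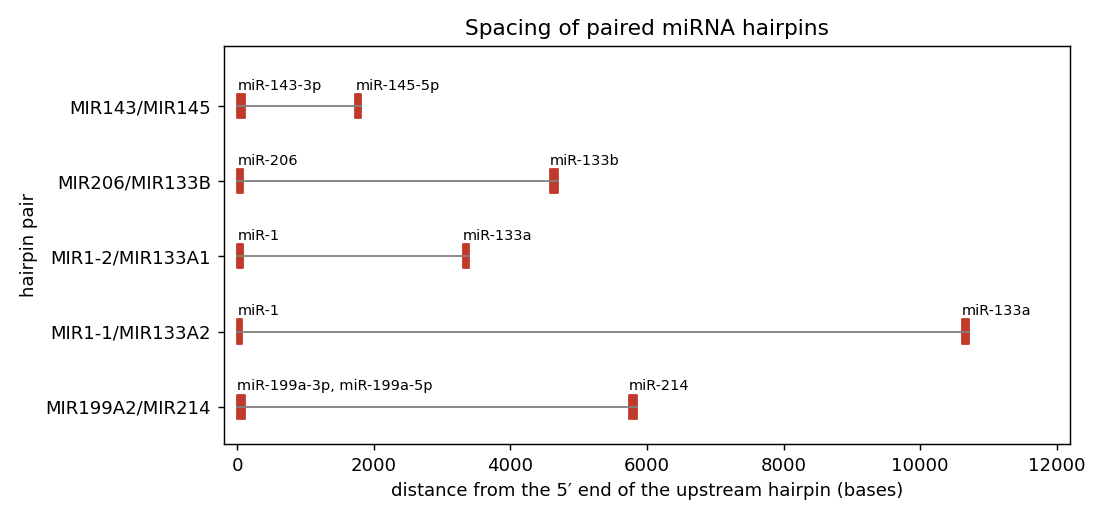
Positions of the paired hairpins, in bases from the 5′ end of the upstream hairpin and drawn to scale, with the mature members each hairpin gives. The gaps run from 1622 bases (MIR143 and MIR145) to 10535 bases (MIR1-1 and MIR133A2).

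The CArG box, the sequence SRF binds, was looked for on both strands in the window from 250 bases before to 50 after the RefSeq start of 4 host genes. Only exact matches to the consensus, a run of A or T between CC and GG, were counted, and sites with a mismatch were not. The window of LINCMD1, which holds MIR133B, was not searched. The window of DNM3OS held 1, while those of CARMN, MIR1-1HG and MIR133A1HG held 0. Of all 35116 such windows, 1.29% held at least 1 CArG box. A match in these letters is not evidence of a bound site, and SRF sites elsewhere at these loci were not searched.

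A signal was listed for 7 members on the Y27632 array and 6 on the control array. Over all 1001 probes, 614 were listed on the Y27632 array and 619 on the control array. Both arrays listed 6 of the 9 members, against 51.8% of all 1001 probes. Neither array listed 2 of the 9, against 28.7% of all probes. An empty cell may mark a low signal or a rejected spot, which no source used here settles, and such a cell is called not listed. Values listed on the Y27632 array ran from 2.7 to 43198.2 with a median of 6.1, and those on the control array from 2.3 to 45829.6 with a median of 6.0. Probes differ in how brightly they read, so no miRNA is called more abundant than another here.

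**Figure D2:**
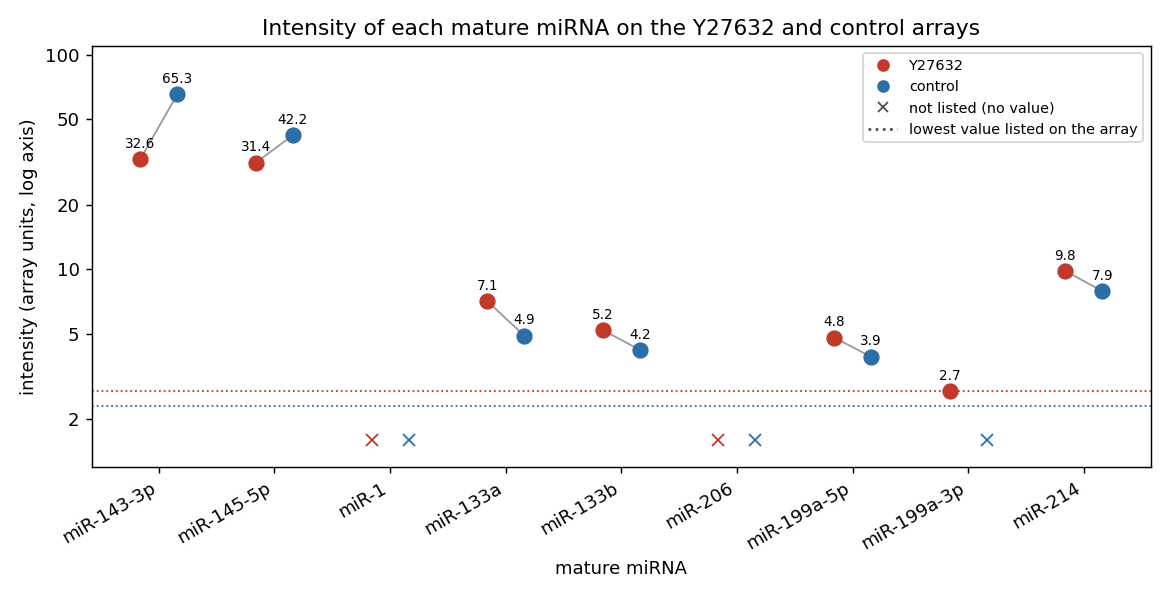
Deposited intensity (array units, log axis) of each of the 9 mature miRNAs, 1 point per array with the Y27632 array on the left; crosses mark cells with no value and dotted lines the lowest value listed on each array. MiR-143-3p and miR-145-5p were dimmer on the Y27632 array, and the other 4 miRNAs with values on both arrays were brighter there.

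Of the smooth muscle pair, both members were lower on the Y27632 array. MiR-143-3p (MIMAT0000435), known for restraining growth and for holding smooth muscle cells in their contractile state, read 32.6 on the Y27632 array and 65.3 on the control array. The Y27632 value was 49.9% of the control value, a log2 ratio (Y27632 over control) of −1.002. MiR-145-5p (MIMAT0000437), which in smooth muscle is known to act against the transcription factors KLF4 and KLF5, read 31.4 on the Y27632 array and 42.2 on the control array. That was 74.4% of the control value, a log2 ratio of −0.43. The readings of the pair were thus 12.1 and 11.6 times the lowest value listed on the Y27632 array, and 28.4 and 18.3 times the lowest on the control array.

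A difference counted as past the limit at 2-fold, a log2 ratio of at least 1 in size. MiR-143-3p was the 1 member at least 2-fold lower, and 0 members were at least 2-fold higher. Among all 519 probes listed on both arrays, 0.578% were at least 2-fold lower and 2.5% at least 2-fold higher. Among the 260 brighter of them the share at least 2-fold lower was 0.385%, which is miR-143-3p itself. Since the miRNAs were chosen with these ratios known, the count gives no support of its own. At a 1.5-fold limit miR-143-3p was still the 1 member called, against 5.39% of the 519 probes lower and 8.86% higher. The next largest fall in those 260, just short of the limit, had a log2 ratio of −0.88, at 8.1 on the Y27632 array and 14.9 on the control array.

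The place of miR-143-3p on either side of 2-fold was not settled by the deposited digits. Values are given to 1 decimal, and a reading of 32.6 can stand for anything within 0.05 of it. Over the rounding range of both readings the log2 ratio of miR-143-3p ran from −1.006 to −0.999, which spans the limit. For miR-145-5p it ran from −0.43 to −0.42.

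Ratios of dim probes scattered more widely than those of bright ones, so each member was set beside the 100 probes nearest to it in mean log2 intensity. All 100 probes nearest to miR-143-3p had a higher log2 ratio than it, the lowest of them at −0.49 and the highest at 0.76. For miR-145-5p, 94 of the 100 nearest had a higher ratio and 6 a lower one. One of those 6 was miR-143-3p, the lowest of them at −1.002. In robust SDs (SD from the scaled median absolute deviation) from the median of its neighbours, miR-145-5p lay at −1.66 and miR-143-3p at −4.50. The pair moved the same way, then, but miR-145-5p stayed within the range of probes of like brightness and miR-143-3p did not. As with the count, the miRNAs were chosen with these ratios known. Their places among the neighbours are thus a description and give no support of their own. Whether their log2 ratios differ cannot be tested with 1 array a condition.

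Nearness in readings on both arrays draws on the same 2 values as the ratio, so it is not a separate observation. By distance in the log2 intensities of the 2 arrays, the probe nearest to miR-143-3p was 0.43 away. That probe read 42.4 on the Y27632 array and 56.6 on the control array. The probe nearest to miR-145-5p was 0.07 away, with 31.5 on the Y27632 array and 40.2 on the control array. For the other 4 members listed on both arrays the nearest probe was 0.04 to 0.07 away. Likeness over 2 arrays is a description only, and the names of those probes were not given in the sources used here.

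**Figure D3:**
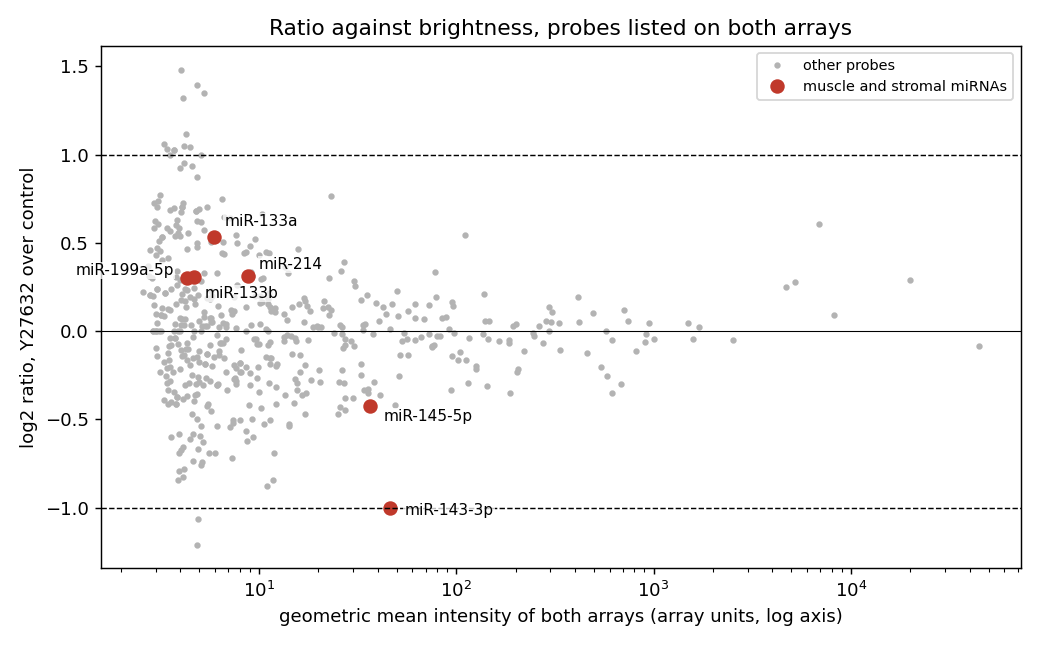
Log2 ratio of Y27632 over control against the geometric mean intensity of both arrays (log axis) for the 519 probes listed on both, with the 6 muscle and stromal miRNAs in red and dashed lines at 2-fold. MiR-143-3p lies on the lower line at −1.002 among brighter probes, and the 4 miRNAs to its left with higher readings lie above 0.

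Of the striated muscle miRNAs, those of the miR-1 seed were not listed and those of the miR-133 seed were dim. MiR-1 (MIMAT0000416), known for promoting differentiation of heart and skeletal muscle, was listed neither on the Y27632 array nor on the control array. MiR-206 (MIMAT0000462), its skeletal muscle relative, likewise had no value on either array. MiR-133a (MIMAT0000427), known for acting on muscle proliferation, read 7.1 on the Y27632 array and 4.9 on the control array, a log2 ratio of 0.54. MiR-133b (MIMAT0000770) read 5.2 on the Y27632 array and 4.2 on the control array, a log2 ratio of 0.31. Both were higher on the Y27632 array, and both were under 3 times the lowest value listed on each array. MiR-133a is made beside miR-1 and miR-133b beside miR-206, so each listed miRNA has a partner that was not listed. Whether the signals came from more than 1 cluster was not tested, since the probes for miR-133a and miR-133b may not tell the RNAs apart. A missing value gives no ratio and no upper limit for miR-1 or miR-206.

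Of the mesenchymal miRNAs, 2 were listed on both arrays and 1 on the Y27632 array alone. MiR-214 (MIMAT0000271), known from mesenchymal and activated stellate cells, read 9.8 on the Y27632 array and 7.9 on the control array, a log2 ratio of 0.31. MiR-199a-5p (MIMAT0000231), which has a locus in the same antisense transcript and another on chromosome 19, read 4.8 on the Y27632 array and 3.9 on the control array, a log2 ratio of 0.30. MiR-199a-3p (MIMAT0000232), the opposite strand of the miR-199a hairpins and one often reported as reduced in hepatocellular carcinoma, was listed at 2.7 on the Y27632 array and not listed on the control array. That reading equals the lowest value listed on the Y27632 array. No ratio is given for it.

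MiR-133a, miR-133b, miR-199a-5p and miR-214 had higher readings on the Y27632 array, by 0.9 to 2.2 array units. The first 3 were among the dimmer probes listed on both arrays, and miR-214 was among the 260 brighter ones. Their fold differences ran from 1.23 (miR-199a-5p) to 1.45 (miR-133a), and their median log2 ratio was 0.31. Of the 146 other probes within their range of brightness, 45.2% were higher on the Y27632 array, and their log2 ratios had a median of −0.07 and quartiles of −0.29 and 0.20. The 519 probes listed on both arrays had a median of 0.00. None of the 4 stood outside its neighbours, with 86 of the 100 nearest probes lower than miR-133a, 82 lower than miR-214, 74 lower than miR-133b and 70 lower than miR-199a-5p. In robust SDs above the median of the neighbours they lay at 1.30 (miR-133a), 1.08 (miR-214), 0.63 (miR-133b) and 0.45 (miR-199a-5p).

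**Figure D4:**
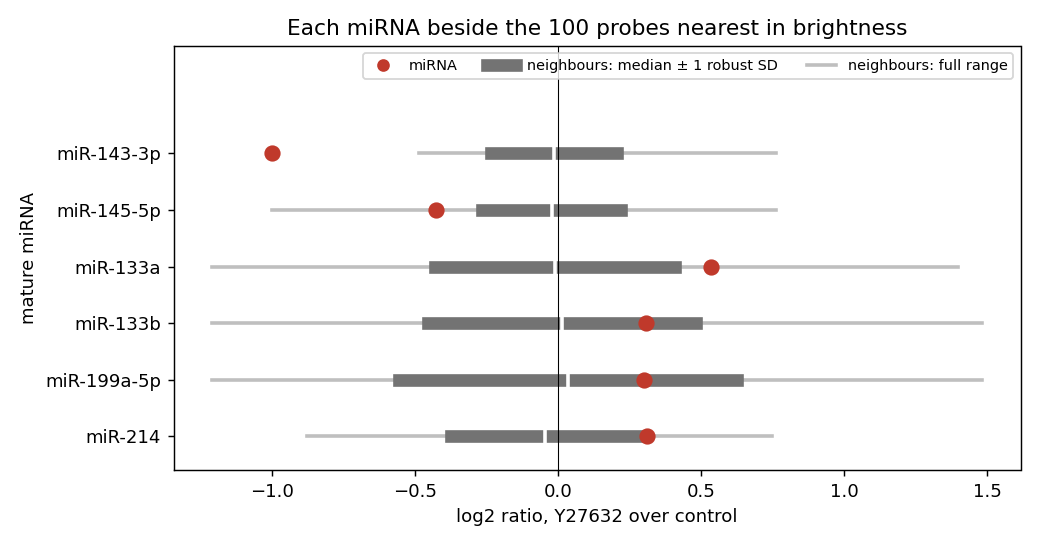
Log2 ratio of Y27632 over control for the 6 miRNAs listed on both arrays (red), beside the median and 1 robust SD (dark bar) and the full range (light line) of the 100 probes nearest in brightness. MiR-143-3p at −1.002 lies below the range of its neighbours, which starts at −0.49, and the other 5 lie within theirs. The miRNAs were chosen with these ratios known.

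The lower end of the arrays differed too, which bears on dim readings. The lowest listed value was 2.7 on the Y27632 array and 2.3 on the control array, a difference of 0.4. With the Y27632 values lowered by that amount, these 4 members had log2 ratios from 0.17 to 0.45 and a median of 0.22. They could not have reached 0, as their readings differed by 0.9 to 2.2 array units. The median of the 146 other probes of like brightness was then −0.16. The part of this offset in the readings was not tested.

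The processing moved none of the 6 log2 ratios across 0. For the pseudocount and the lowering by 0.4 this was fixed by arithmetic, since neither could reverse these differences. Over 6 alternatives the ratio of miR-143-3p ran from −1.02 to −0.94 and that of miR-145-5p from −0.44 to −0.31. The ratio of miR-133a ran from 0.35 to 0.58 and that of miR-214 from 0.23 to 0.36. For miR-133b the range was 0.19 to 0.33 and for miR-199a-5p 0.17 to 0.32.

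**Figure D5:**
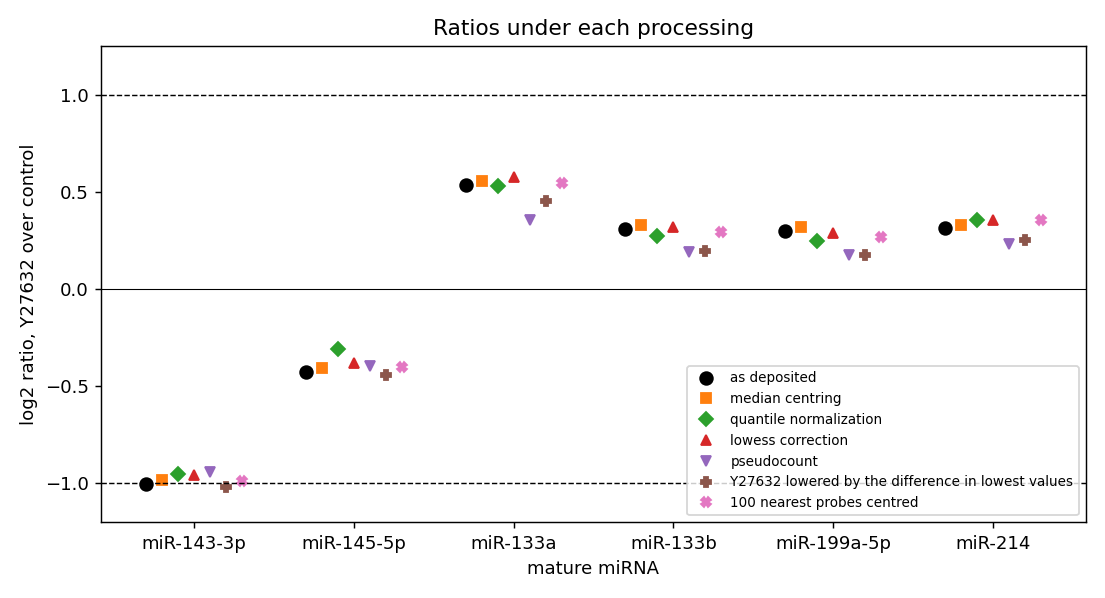
Log2 ratio of Y27632 over control for the 6 miRNAs as deposited (black) and under 6 other ways of processing, with dashed lines at 2-fold. The sign of each miRNA is the same in every column of points, and miR-143-3p falls on either side of the 2-fold line, between −1.02 and −0.94.

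Grouped by locus, both members of the miR-143 and miR-145 cluster were lower on the Y27632 array. The 4 members of the other clusters that both arrays listed were higher, though miR-133a and miR-133b may not be separate signals. Over all 519 probes listed on both arrays, 254 were lower on the Y27632 array and 252 higher. The 6 ratios ran from −1.002 to 0.54 with a median of 0.30, against a median of 0.00 and a range from −1.21 to 1.48 over all 519 probes. The split also follows brightness, as the 2 lower members were the 2 brightest, with geometric means of 36.4 and 46.1, and the 4 higher ones had geometric means from 4.33 to 8.80. Of the 7 other probes between miR-145-5p and miR-143-3p in brightness, 4 were higher on the Y27632 array. Their log2 ratios had a median of 0.06 and a lowest of −0.36. That window is narrow and its edges are the 2 members. Among the 100 probes nearest to miR-145-5p, 6 had a lower ratio than it, miR-143-3p among them. Whether the split goes with locus or with brightness was not tested.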

How the data were processed

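Mature miRNAs were measured on 2 single-colour arrays, 1 of Huh7 cells after Y27632 and 1 of control cells. Per the labels' protocols, total RNA was isolated with ISOGEN and labelled with Hy5 (Exiqon miRCURY kit). The deposited values are intensities, 1 per probe and array; that they are linear was judged from their range. Their background correction, normalization and software were, in the sources used here, not given. Precision is limited by having 1 array per condition.

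The 9 members and the lists were chosen with earlier results of these data known. Members were taken by accession, with names from the selection rule, since 0 of the reference tables pair such accessions with names. Lists of partner strands, other muscle miRNAs and cell type markers were therefore not evaluated, and the Huh7 label could not be checked against hepatocyte markers. All 9 members were named by rule, and the 3 probes nearest to each of the 6 listed on both arrays were found, of which the nearest is described without a name.

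Log2 ratios of Y27632 over control were computed with no pseudocount. Alternatives were median centring, quantile normalization, lowess (fraction 0.4), a pseudocount of 3 (the mean 10th percentile), a 1.5-fold limit, missing values set to the lowest listed, the brighter 50% of probes and a minimum of 5 for a listed value. Lowering the Y27632 values by 0.4, centring on the 100 nearest probes and the rounding range were added after seeing the data. The calculations were tested on simulated data, with changes placed only among the brighter 50% of probes. The pseudocount and the lowered Y27632 values were not part of that test. Calculations ran in Python 3.11.15 (statsmodels 0.14.6, numpy 2.4.6, scipy 1.17.1, pandas 2.3.3), and plots in matplotlib 3.10.9.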

Additional observations from a re-analysis of the deposited data

Results flagged for a closer look

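MiR-199a-3p had a signal on the Y27632 array, at 2.7, and no value on the control array, so it stood outside the ratio comparison. Its reading equals the lowest value listed on the Y27632 array, and 1 probe of that array was at that value. In all, 95 of the 1001 probes were listed on the Y27632 array only and 100 on the control array only. With the control cell set to the lowest control value, 2.3, its log2 ratio would be 0.23.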

How the results depend on the processing

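All 6 log2 ratios kept their direction under the 6 alternatives. These were median centring, quantile normalization, lowess, pseudocount, Y27632 values lowered by 0.4 and centring on the 100 nearest probes. The 36 values each moved by less than 1 robust SD of the probes nearest in brightness. A pseudocount cannot change a direction, and median centring shifted every ratio by only 0.019. Lowering by 0.4 could not reverse members that were lower already or higher by at least 0.9 array units. Directions kept under these settings give no added support, and no setting bears on variation between replicate arrays. The count of members at least 2-fold lower was 1 as deposited and 0 under median centring, quantile normalization, the lowess correction, the pseudocount, centring on the 100 nearest probes and the smallest difference within rounding. In each case miR-143-3p moved from −1.002 to short of −1, at between −0.999 and −0.94. The count stayed at 1 with the Y27632 values lowered, a 1.5-fold limit, missing values filled and the brighter 50% of probes, and the count at least 2-fold higher was 0 under all of these. With only values of at least 5 counted as listed, 5 members remained on the Y27632 array (7 as deposited). On the control array 3 remained (6 as deposited). The same count over all probes was not made. Leaving out a replicate was impossible with 1 array a condition. No paired analysis was possible because there is no second replicate number. Low signal limits miR-133a, miR-133b, miR-199a-5p and miR-199a-3p. It limits miR-214 too, at 3.6 times the lowest value listed on the Y27632 array and 3.4 times that on the control array. Background values were not used here.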
